A study of Mus musculus with 18 samples.

Results

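The 41 interferon-response genes described here were taken from a fixed list of names and were all found, each as 1 of the 24732 features of the expression tables. The list was chosen with earlier results of these data known, so its counts beside the shares of all features are a description. Their RNA was measured in macrophages of wild-type (WT, Bhlhe40+/+Bhlhe41+/+) mice and of mice lacking the related transcriptional repressors Bhlhe40 and Bhlhe41 (double knockout, DKO, Bhlhe40-/-Bhlhe41-/-), all on the C57BL/6 strain. In DKO libraries 23 of the 41 genes were higher in steady-state alveolar macrophages, 7 in alveolar macrophages of bone marrow chimeras and 33 in peritoneal macrophages, while 4, 2 and 0 were lower. Among all 12303 features tested, 12.2%, 13.7% and 6.80% were higher and 39.4%, 13.6% and 16.1% lower.

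The 12 RNA libraries fall into 6 groups of 2, which the series design calls biological replicates. Steady-state alveolar macrophages, the resident cells of the air spaces, were sorted from digested lungs as CD11c+ SiglecF+ cells with low CD11b. Chimera alveolar macrophages were sorted the same way from mice rebuilt with a mix of both marrows, with WT cells taken as CD45.1+ CD45.2- and DKO cells as CD45.1- CD45.2+, so that both genotypes had lived in the same kind of host. Peritoneal macrophages came from lavage and were gated as F4/80+ and Tim4+, CD11b+ and intermediate for MHC class II. The labels give no age, sex or number of mice per library, and name no treatment. The genotype in the chimeras goes with the CD45 allele, and the effects of the 2 cannot be told apart. With 2 libraries a group, all p-values rest on a spread between replicates that is estimated jointly from the 6 groups.

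Interferons are secreted when cells sense viral or bacterial nucleic acids. Type I interferons bind the receptor of Ifnar1 and Ifnar2, whose kinases Jak1 and Tyk2 activate Stat2; with Irf9 it forms part of a complex that binds the interferon-stimulated response element (ISRE) in the promoters of target genes. Interferon gamma acts through a second element (GAS) and induces Irf1, guanylate-binding proteins and immunity-related GTPases. Resident macrophages keep a low, tonic level of many of these targets without infection, and in the lung, macrophages are an early source and target of interferon.

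The promoters of the genes are shown first, because the ISRE links interferon signalling to its target genes. In RefSeq promoters of the build GRCm38.p6, 31 of the 41 genes had an entry. Usp18, Iigp1, Rtp4, Mx1, Oas2, Parp9, Parp14, Mx2, Zbp1 and Dhx58 had none. In the 250 bases before a start, the core ISRE letters (GAAA, any 2 bases, GAAA), searched on both strands as all motifs here, were found in 14 of the 31 genes (45.2%) and in 3.46% of all 27025 genes of the table. The GAS letters TTCNNNGAA were found in 10 of the 31 (32.3%) and in 8.13% of all genes. The E-box CACGTG, letters that Bhlhe40 is known to bind, was found in 0 of the 31 and in 6.86% of all genes, which says only that these letters are not in this window. Of the 5 genes with both an ISRE and a GAS match, the matches overlapped in 1, Bst2. Printed here are stretches of 100 bases with the ISRE letters in capitals (on the opposite strand they read TTTC, any 2 bases, TTTC). The stretches come from 6 genes that are described below. Each is given from 5′ to 3′ in the direction of transcription.

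Gbp2 (chr3:142620559-142620658, plus strand): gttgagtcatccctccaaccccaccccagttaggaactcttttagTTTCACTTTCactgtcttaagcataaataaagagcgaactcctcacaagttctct
Gbp3 (chr3:142559944-142560043, plus strand): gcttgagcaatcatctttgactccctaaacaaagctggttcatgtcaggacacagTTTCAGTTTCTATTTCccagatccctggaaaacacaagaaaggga
Irgm2 (chr11:58214868-58214967, plus strand): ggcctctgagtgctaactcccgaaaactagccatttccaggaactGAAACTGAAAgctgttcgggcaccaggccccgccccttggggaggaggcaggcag
Oas3 (chr5:120777680-120777779, minus strand): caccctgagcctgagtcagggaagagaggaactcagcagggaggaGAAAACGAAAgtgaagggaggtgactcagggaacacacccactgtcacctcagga
Rsad2 (chr12:26456518-26456617, minus strand): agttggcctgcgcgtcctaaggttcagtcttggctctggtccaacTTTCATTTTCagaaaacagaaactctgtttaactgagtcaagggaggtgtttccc
Isg15 (chr4:156200842-156200941, minus strand): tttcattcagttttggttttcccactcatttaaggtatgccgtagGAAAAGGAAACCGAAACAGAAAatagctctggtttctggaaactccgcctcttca

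The match begins 59 bases before the start in Gbp2 and 45 in Gbp3, both of the guanylate-binding protein family, and in Isg15 3 copies overlap into 1 longer run. The calls of genes with and without the letters were counted and not tested. Of the 14 genes with an ISRE match, 9 were higher in steady-state alveolar DKO cells, 2 in the chimera and 9 in peritoneal DKO cells. Of the 17 genes without a match, 8, 5 and 14 were higher in the same comparisons. Of all features tested, 12.2%, 13.7% and 6.80% were higher in them.

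Per library, 6.59 to 29.34 M reads were recovered from the deposited values, and DKO chimera replicate 1 was the shallowest. Bhlhe40 was lower in both DKO libraries of each population (98.67 to 122.3 against 526.7 to 558.9 TPM, a length-corrected abundance whose total is equal in all libraries, at steady state), while the Bhlhe41 RNA was higher in them, so that gene-level TPM checks the label through Bhlhe40 alone. Of the WT libraries, those from the lung had higher levels of 7 of 9 alveolar macrophage markers (all but Marco and Fabp4), and those from the peritoneum of 7 of 7 peritoneal macrophage markers. The replicates of the steady-state DKO group differed more than those of any other group, with a chi-square per degree of freedom of 31.51 over all features against 5.47 to 12.72. In sorted bulk RNA, fewer cells of a type and less RNA per cell cannot be told apart.

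All 41 genes were detected and entered the tests, with 27 at 1 TPM or more in every library. Ifi44 entered only through the peritoneal DKO libraries, where it is high, so it had to differ there. Ifit3 reached 1 TPM in both peritoneal DKO libraries and otherwise only in steady-state DKO replicate 2, so it needed the peritoneal DKO libraries to enter. Ifit2 reached 1 TPM only in the alveolar DKO libraries. The peritoneal call of Ifit3 and the alveolar calls of Ifit2 therefore rest in part on the filter. The most abundant were Samhd1, which degrades nucleotides needed for viral replication, and Bst2 (tetherin), which holds budding virions at the cell surface. Mean Samhd1 was 257 TPM in WT steady-state alveolar, 229 TPM in WT chimera and 196 TPM in WT peritoneal macrophages, and mean Bst2 was 93.5, 156 and 246 TPM. The Gbp2, Ifi47, Parp9 and Dtx3l features carry a suffix, IMP_OVL, whose meaning the files do not give, and for genes with near-identical copies, such as Oas1a, Ifit3, Iigp1 and the Gbp genes, the authors' counting could split reads between copies, so their levels are uncertain. At the other end 14 of the 41 genes had a mean under 1 TPM in WT steady-state alveolar cells, 10 in WT chimera cells and 4 in WT peritoneal cells. The summed level of the 41 genes was 758 TPM in WT and 939.9 TPM in DKO steady-state alveolar macrophages, 777.8 and 848.5 TPM in the chimera, and 1308 and 2310 TPM in peritoneal macrophages.

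**Figure D1:**
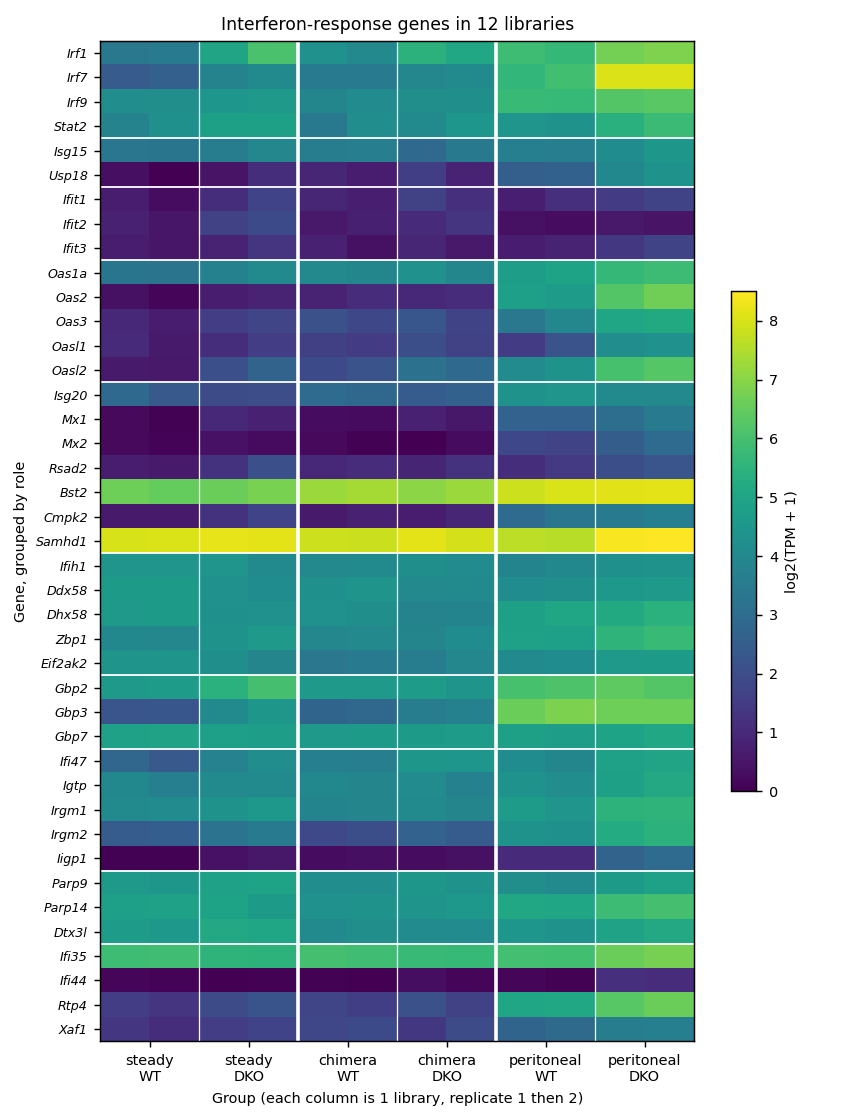
Level of each of the 41 genes (vertical axis, ordered by role) in each of the 12 libraries (horizontal axis, 2 per group), coloured by log2(TPM + 1). Samhd1 and Bst2 are bright throughout, the OAS genes, Irf7 and Rtp4 are brightest in peritoneal DKO cells, and Ifit, Mx and Iigp1 genes are dark in alveolar cells.

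The first comparison asked how loss of both repressors changed these genes in alveolar macrophages of undisturbed lungs. Of the 41, 23 were higher in DKO cells, 4 were lower and 14 did not pass (limma on log2(TPM + 1), adjusted p under 0.05). Among all 12303 features tested, 12.2% were higher and 39.4% lower. The median log2 fold change was 0.48 for the 41 genes and -0.22 for all features. Because the TPM of one library sums to a fixed total, the comparison was repeated with library sizes rescaled (median of ratios), which moved the median of all features from -0.22 to 0.00. Then 28 of the genes were higher and 0 lower, with a median of 0.64, against 20.4% and 17.9% of all features. DKO and WT libraries did not overlap in 31 genes with higher and 7 with lower values in DKO, against 19.2% and 57.2% of all features. Without DKO replicate 2, which was above its partner in 29 of the 41 genes and in 34.2% of all features, 12 genes were higher, and the calls of Oas1a, Oas2, Oas3, Irgm1, Iigp1, Rtp4, Parp9 and Zbp1 were among those lost.

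All 4 transcription factors rose. Irf1, a factor induced mainly by interferon gamma, stood at 9.61 and 10.3 TPM in the WT libraries and at 30.5 and 65.5 TPM in the DKO libraries. Its log2 fold change was 2.06 ± 0.28 (standard error, adjusted p = 0.000292). Both DKO libraries lay far above WT, but they also lay far apart from each other. Irf7, the factor that amplifies type I interferon production, stood at 4.46 and 5.09 TPM in WT and 13.1 and 15.8 TPM in DKO, a log2 fold change of 1.41 ± 0.12 (adjusted p = 1.67e-05). Irf9 stood at 16.9 and 17.2 TPM in WT and 21.2 and 23.5 TPM in DKO, with 0.37 ± 0.09 (adjusted p = 0.00732). Stat2 stood at 13.1 and 18.5 TPM in WT and 27.4 and 27.3 TPM in DKO, with 0.77 ± 0.25 (adjusted p = 0.024). The groups were separate for each of these factors, with Irf9 moving least, and the Stat2 call is lost without DKO replicate 1, DKO replicate 2 or WT replicate 1.

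Among the guanylate-binding proteins, GTPases that coat vacuoles of intracellular pathogens, Gbp2 and Gbp3 rose and Gbp7 did not pass. Gbp3 went from 3.74 and 3.80 TPM to 15.2 and 21.7 TPM, by 2.01 ± 0.14 (adjusted p = 4.87e-06). Gbp2 went from 23.2 and 24.6 TPM to 42.5 and 63.3 TPM, by 1.09 ± 0.16 (adjusted p = 0.000488). For both genes the DKO libraries lay wholly above WT. Of the 5 immunity-related GTPases, which attack the same vacuoles or, as Irgm proteins, restrain their relatives, 4 rose and Igtp did not pass. Ifi47 rose from 6.05 and 4.15 TPM to 12.6 and 17.0 TPM, by 1.38 ± 0.17 (adjusted p = 0.000141). Irgm2 rose from 4.51 and 4.88 TPM to 8.52 and 10.4 TPM, by 0.87 ± 0.13 (adjusted p = 0.000529), with no overlap of the groups in either gene. Iigp1 rested on few reads, 20 in the DKO and 2 in the WT libraries, and the ratio of read shares was 9.97 with a 95% counting interval of 2.42 to 88.

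Of the 5 genes of the OAS family, whose active enzymes answer double-stranded RNA by making the signal that activates RNase L, 4 rose and Oasl1 did not pass. The largest change was that of the OAS-like gene Oasl2, which stood at 0.544 and 0.488 TPM in WT and 3.20 and 5.52 TPM in DKO, a difference of 1.79 ± 0.20 (adjusted p = 9.42e-05). Its WT libraries lay close together and far below both DKO libraries. Oas1a, Oas2 and Oas3 changed by 0.59, 0.50 and 0.84 on the same scale, and Oas2 stayed under 1 TPM in all 4 libraries. Of the IFIT genes, which bind the ends of foreign RNA, Ifit2 rose from 0.710 and 0.423 TPM to 2.21 and 2.75 TPM, by 1.15 ± 0.17 (adjusted p = 0.000421). Ifit1 rose from 0.601 and 0.211 TPM to 1.15 and 2.26 TPM, by 0.93 ± 0.26 (adjusted p = 0.0132). Both are low in all 4 libraries, where adding 1 to the TPM understates a change, and Ifit3 did not pass. Ifit2 entered the tests only through alveolar DKO libraries.

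Of the 7 other antiviral effectors, Rsad2 (viperin, which makes a chain-terminating nucleotide), its neighbour Cmpk2, a nucleotide kinase, and Mx1 rose, and Isg20, an exonuclease, was lower. Rsad2 stood at 0.612 and 0.515 TPM in WT and 1.39 and 3.19 TPM in DKO, a difference of 1.02 ± 0.25 (adjusted p = 0.0073), with the second DKO library well above the first. The calls of Rsad2 and Ifit1 are lost without DKO replicate 2. Mx1, a dynamin-like GTPase whose allele in C57BL/6 mice is known to be defective, stood at 0.164 and 0.0468 TPM in WT and 0.931 and 0.722 TPM in DKO. Parp9 and Dtx3l, partner genes of a ubiquitin-ligase complex, rose by 0.37 and 0.48, and Parp14 did not pass with -0.05. Rtp4, a receptor transport protein, rose by 0.68. Isg15, a ubiquitin-like tag, and Usp18, the protease that removes it and restrains the receptor, had 0.44 and 0.60 and did not pass.

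Of the 5 nucleic acid sensors 2 were lower, 1 was higher and 2 did not pass. Ddx58 (RIG-I), a sensor of viral RNA ends, stood at 23.8 and 23.7 TPM in WT and 18.6 and 16.5 TPM in DKO, with -0.42 ± 0.09 (adjusted p = 0.00302). Dhx58 (LGP2), its regulator, stood at 22.9 and 23.7 TPM in WT and 18.2 and 18.8 TPM in DKO, with -0.32 ± 0.11 (adjusted p = 0.0322). The Dhx58 call is lost when any 1 of the 4 libraries is left out. DKO libraries lay below WT in both genes, but after rescaling neither passed, with -0.17 (adjusted p = 0.0904) for Ddx58 and -0.07 (adjusted p = 0.661) for Dhx58. Ifi35 and Isg20, the other lower genes, also did not pass then, with adjusted p = 0.233 and 0.0699. Of the remaining sensors, Zbp1, which detects Z-form nucleic acids, rose by 0.48, and Ifih1 (MDA5) and the kinase Eif2ak2 (PKR) did not pass.

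**Figure D2:**
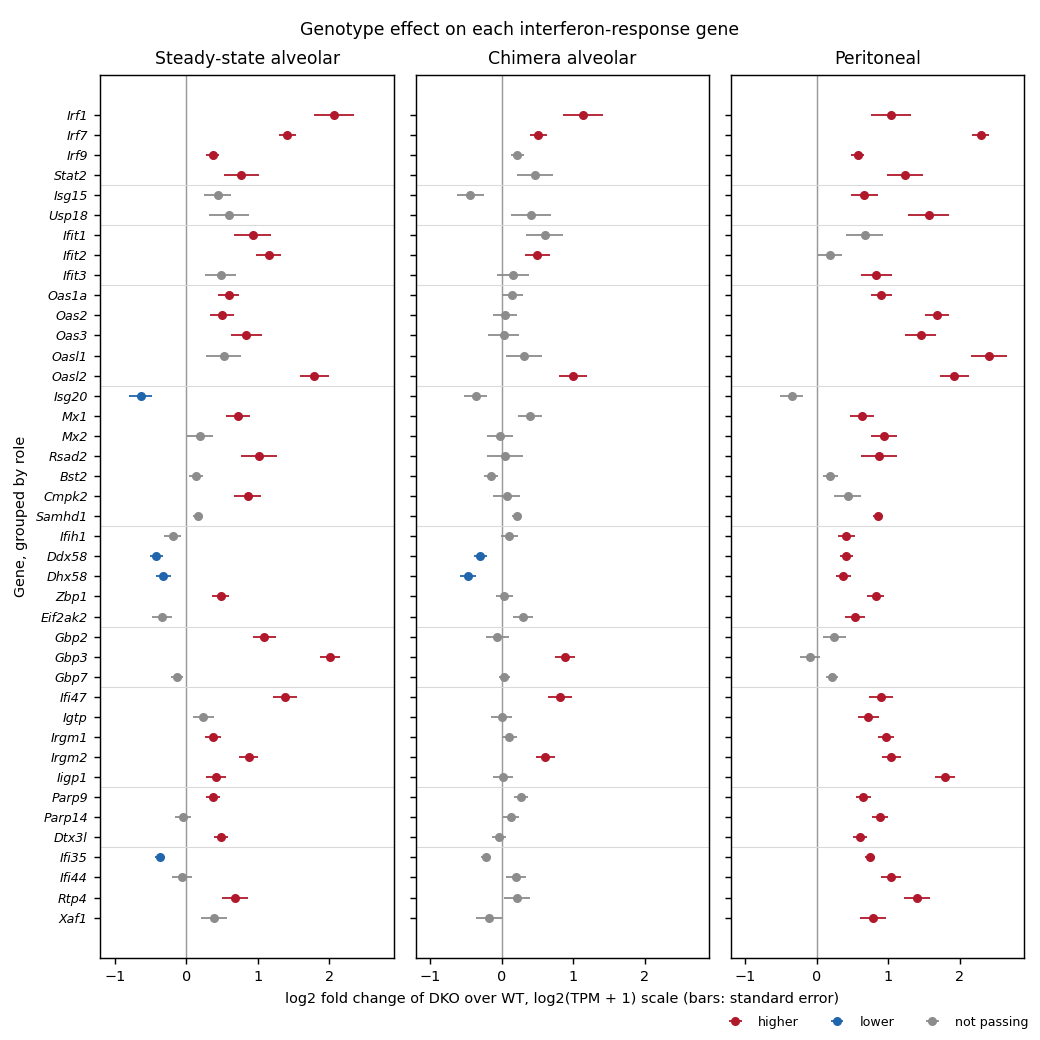
Log2 fold change of DKO over WT on the log2(TPM + 1) scale (horizontal axis) with its standard error (bars) for each of the 41 genes (vertical axis, ordered by role) in the 3 populations, red and blue points marking genes that passed as higher or lower and grey points those that did not. Points shift right in steady-state alveolar and most in peritoneal cells, where 33 are red and 0 blue, and in the chimera 7 are red.

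Markers of other cells moved with the genotype in the same libraries. Peritoneal macrophage markers summed to 215 to 226 TPM in DKO and 42.5 to 49.4 TPM in WT libraries, mostly from Apoc1, with 3 of 7 higher (Apoc1, Timd4 and Icam2), while the defining factor Gata6 was at 0 in both DKO libraries. Of 9 alveolar macrophage markers, 3 were higher (Marco, Fabp4 and Itgax) and 4 lower (Pparg, Siglec5, Car4 and Krt79). The summed level of neutrophil markers was 367 to 388 TPM in steady-state DKO and 86.3 to 86.4 TPM in WT libraries, with 3 of the 4 tested of 7 found higher and 1 lower, through Csf3r, Mmp8 and S100a8, while the defining marker S100a9 stayed at 0.233 to 0.683 TPM and Camp at 0. The part of these markers in the result was not tested. The summed level of plasmacytoid dendritic cell markers, a known interferon source, was 10.7 to 10.8 TPM in DKO and 11.4 to 12.7 TPM in WT, mostly from Tcf4, and Siglech did not exceed 0.153 TPM. Of the 2 tested of 7 found, 1 was lower (Tcf4), and 0 were after rescaling. Monocyte markers summed to 4.15 to 4.71 TPM in DKO and 5.81 to 7.04 TPM in WT libraries, with 1 of the 5 tested higher (F13a1) and 1 lower (Plac8). Lung epithelium markers summed to 178 to 192 TPM in DKO and 200 to 258 TPM in WT. Of the 6 tested, 2 were higher (Sftpb and Scgb1a1) and 2 lower (Epcam, by -5.93, and Ager). Their part in the result was not tested either.

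The second comparison asked for the genotype effect where both genotypes had lived in the same kind of host. In chimera alveolar macrophages 7 of the 41 genes were higher in DKO cells, 2 lower and 32 not passing. Among all features 13.7% were higher and 13.6% lower. The median log2 fold change was 0.13 for the genes and 0.01 for all features, and libraries did not overlap in 17 genes with higher and 5 with lower values, against 31.9% and 30.6% of all features. After rescaling 6 genes were higher and 3 lower, against 14.3% and 15.1% of all features, since Ifit2 no longer passed (adjusted p = 0.0517) and Ifi35 did as lower.

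The 7 higher genes were Irf1, Irf7, Oasl2, Gbp3, Ifi47, Irgm2 and Ifit2, each also higher at steady state. Irf1 stood at 18.9 and 14.9 TPM in WT and 43.3 and 33.6 TPM in DKO chimera cells, a log2 fold change of 1.14 ± 0.28 (adjusted p = 0.014). Oasl2 stood at 2.79 and 3.47 TPM in WT and 8.204 and 6.43 TPM in DKO, with 1.00 ± 0.20 (adjusted p = 0.00536). Gbp3 stood at 5.70 and 6.09 TPM in WT and 11.1 and 12.3 TPM in DKO, with 0.88 ± 0.14 (adjusted p = 0.00176). In these 3 genes the DKO libraries lay wholly above WT by more than either group's own spread. Ifi47 stood at 11.8 and 11.6 TPM in WT and 21.5 and 21.3 TPM in DKO, with 0.82 ± 0.17 (adjusted p = 0.00561). Irgm2 stood at 2.68 and 3.16 TPM in WT and 5.32 and 4.61 TPM in DKO, with 0.61 ± 0.13 (adjusted p = 0.00776). The replicates of Ifi47 nearly coincided within each genotype, and Irgm2 was separate between them. Leaving out DKO replicate 1 or WT replicate 1 left 4 higher genes. The Irf1 call was lost without DKO replicate 1 or WT replicate 2, and the Irgm2 call without DKO replicate 1 or WT replicate 1.

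Irf7 changed less here, from 10.5 and 10.2 TPM to 14.4 and 15.9 TPM, by 0.51 ± 0.12 (adjusted p = 0.0123), a call lost without DKO replicate 2 or either WT replicate. Ifit2 stood at 0.497 and 0.696 TPM in WT and 1.07 and 1.46 TPM in DKO, with 0.50 ± 0.17 (adjusted p = 0.0485), close to the threshold, and that call is lost when any 1 of the 4 libraries is left out. Ifit2 also entered the tests only through alveolar DKO libraries. The partner factors of the interferon complex did not pass. Irf9 stood at 13.8 and 16.3 TPM in WT and 17.6 and 17.8 TPM in DKO (0.22 ± 0.09, adjusted p = 0.102), and Stat2 at 9.79 and 17.0 TPM in WT and 15.9 and 21.2 TPM in DKO (0.47 ± 0.25, adjusted p = 0.188). The Stat2 libraries of the 2 genotypes overlapped, and those of Irf9 did not.

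Ddx58 and Dhx58 were lower here as well. Ddx58 stood at 18.4 and 20.1 TPM in WT and 15.2 and 15.6 TPM in DKO, with -0.30 ± 0.09 (adjusted p = 0.028). Dhx58 stood at 18.9 and 18.0 TPM in WT and 12.9 and 13.2 TPM in DKO, with -0.47 ± 0.11 (adjusted p = 0.0101). Both calls held after rescaling (adjusted p = 0.0103 and 0.00837), but the Dhx58 call was lost without DKO replicate 1 or WT replicate 1, and the Ddx58 call when any 1 of the 4 libraries is left out. The other 32 genes ranged from -0.44 for Isg15 to 0.60 for Ifit1. Ifi44, an induced gene of little known function, rested on 5 reads of DKO and 1 read of WT cells, and the ratio of read shares was 6.91 with a counting interval of 0.773 to 327. Neutrophil markers summed to 231 to 238 TPM in DKO and 92.1 to 110 TPM in WT libraries, and monocyte markers to 27.5 to 32.9 and 9.09 to 10.4 TPM, mostly from F13a1 in DKO. Of 4 neutrophil markers tested 2 were higher (Csf3r and Mmp8) and 0 lower. Of 5 monocyte markers tested 1 was higher (F13a1) and 1 lower (Plac8). Plasmacytoid dendritic cell markers summed to 13.6 to 15.7 TPM in DKO and 9.25 to 10.9 TPM in WT, with 1 of the 2 tested higher (Tcf4). Lung epithelium markers summed to 45.2 to 65.3 TPM in DKO and 180 to 253 TPM in WT, with 4 of the 6 tested of 7 found lower, and dendritic cell markers to 7.81 to 12.8 and 3.04 to 3.2 TPM, with 1 of the 4 tested of 6 higher (Ccr7). Peritoneal macrophage markers summed to 12.9 to 14.8 TPM in DKO and 3.24 to 4.83 TPM in WT, with 3 of 7 higher, and of 9 alveolar macrophage markers 3 were higher and 4 lower. The part of these markers in the result was not tested.

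The genotype effects of the 2 alveolar settings were then compared directly, as the chimera effect minus the steady-state effect. The difference passed as lower in 5 genes and as higher in 1, against 4.52% and 19.9% of all features. The median difference was -0.32 for the genes and 0.21 for all features. After rescaling 7 genes were lower and 0 higher, against 10.2% and 6.79% of all features. The genotype effect was smaller in the chimera by -1.15 ± 0.23 for Gbp2 (adjusted p = 0.00959) and by -1.13 ± 0.20 for Gbp3 (adjusted p = 0.00658). Gbp2 stood at 23.1 and 23.5 TPM in WT and 24.6 and 20.2 TPM in DKO chimera cells, so the groups overlapped there, while they were far apart at steady state. Irf7 differed by -0.90 ± 0.17 (adjusted p = 0.00834), Isg15 by -0.88 ± 0.26 (adjusted p = 0.0379) and Dtx3l by -0.52 ± 0.14 (adjusted p = 0.0272). Without steady-state DKO replicate 1 the number of lower genes was 11, and without WT replicate 2 of either setting it was 3. The Isg15 call was lost without any 1 library other than chimera DKO replicate 2 and steady-state DKO replicate 1, and the Dtx3l call without chimera DKO replicate 1 or WT replicate 2 of either setting. Isg15 was higher in both DKO libraries than in WT at steady state, at 10.8 and 14.4 against 9.03 and 8.84 TPM, and lower in the chimera, at 6.53 and 9.74 against 11.1 and 11.3 TPM. The gene with a positive difference was Eif2ak2 (0.64 ± 0.20, adjusted p = 0.041), which did not pass after rescaling (adjusted p = 0.145) or without any 1 library other than DKO replicate 1 of either setting. Eif2ak2 was lower in both DKO libraries than in WT at steady state, at 17.75 and 13.74 against 20.2 and 19.99 TPM. In the chimera it was higher, at 11.08 and 14.24 against 9.433 and 10.66 TPM. Irf1, Ifi47, Irgm2 and Oasl2, raised in both settings, had differences of -0.93, -0.56, -0.27 and -0.78 that did not pass (adjusted p = 0.111, 0.108, 0.304 and 0.0716).

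**Figure D3:**
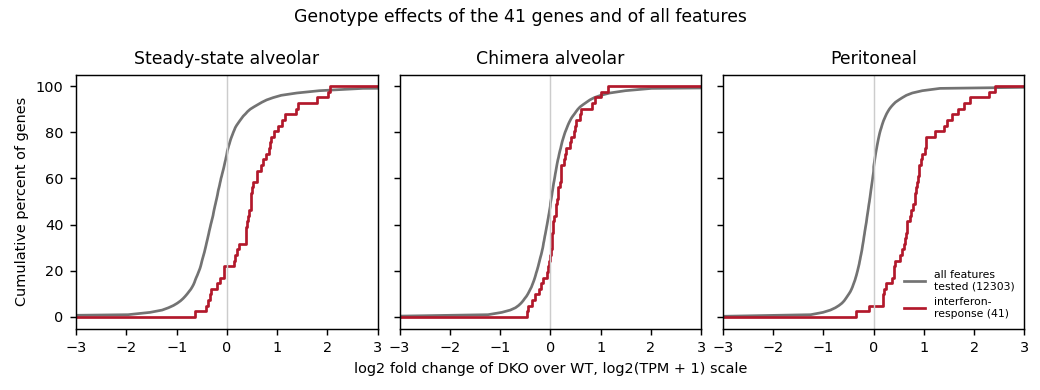
Cumulative percent of genes (vertical axis) against the log2 fold change of DKO over WT on the log2(TPM + 1) scale (horizontal axis), for the 41 genes (red) and all 12303 features tested (grey) in each population. At the median the red curve lies to the right of the grey one. The medians are 0.48 against -0.22 at steady state, 0.13 against 0.01 in the chimera and 0.82 against -0.09 in the peritoneum. In each population the largest changes among all features exceed those of the 41 genes, so the curves cross in the upper tail.

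The third comparison asked the same question in peritoneal macrophages. Here 33 of the 41 genes were higher in DKO cells, 0 lower and 8 not passing. Among all features 6.80% were higher and 16.1% lower, and the median log2 fold change was 0.82 for the genes and -0.09 for all features. After rescaling 34 genes were higher and 0 lower, against 11.9% and 7.87% of all features. At an unadjusted p under 0.05, 35 genes passed as higher and 0 as lower, against 9.78% and 25.3% of all features. The libraries did not overlap in 39 genes with higher values and 1, Isg20, with lower values, against 20.4% and 46.4% of all features. The 33 include Ifi44, whose call follows from the filter, and Ifit3, which needed the peritoneal DKO libraries to enter. The 8 that did not pass were Isg20, Ifit1, Ifit2, Bst2, Gbp2, Gbp3, Gbp7 and Cmpk2.

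All 5 OAS genes rose, and they gave 4 of the 10 largest changes. Oasl1, which in mice holds back the translation of Irf7, stood at 1.82 and 3.49 TPM in WT and 17.1 and 18.6 TPM in DKO libraries, a log2 fold change of 2.41 ± 0.25 (adjusted p = 0.000237). Oasl2 stood at 16.4 and 19.0 TPM in WT and 64.2 and 75.4 TPM in DKO, with 1.92 ± 0.20 (adjusted p = 0.000255). Oas2 stood at 26.9 and 25.2 TPM in WT and 73.4 and 100 TPM in DKO, with 1.68 ± 0.17 (adjusted p = 0.000219). In each of them the lower DKO library was well above the higher WT library. Oas3 stood at 9.51 and 14.2 TPM in WT and 32.1 and 34.9 TPM in DKO, with 1.45 ± 0.22 (adjusted p = 0.00175). Oas1a rose by 0.90 ± 0.15 (adjusted p = 0.00222).

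Irf7 rose most among the transcription factors. It stood at 48.1 and 59.8 TPM in WT and 267 and 265 TPM in DKO, a log2 fold change of 2.29 ± 0.12 (adjusted p = 4.12e-06), which put it among the 3 most abundant of the 41 genes in peritoneal DKO cells. Its DKO replicates were nearly equal. Stat2 stood at 20.6 and 19.1 TPM in WT and 41.5 and 54.7 TPM in DKO, with 1.23 ± 0.25 (adjusted p = 0.00653). Irf1 stood at 56.9 and 50.02 TPM in WT and 104 and 116 TPM in DKO, with 1.03 ± 0.28 (adjusted p = 0.0261), a call lost when any 1 of the 4 peritoneal libraries is left out. The Stat2 call is lost without replicate 2 of either genotype. Irf9 stood at 51.6 and 51.3 TPM in WT and 74.4 and 79.7 TPM in DKO, with 0.57 ± 0.09 (adjusted p = 0.00206). All 4 factors were separate between the genotypes.

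**Figure D4:**
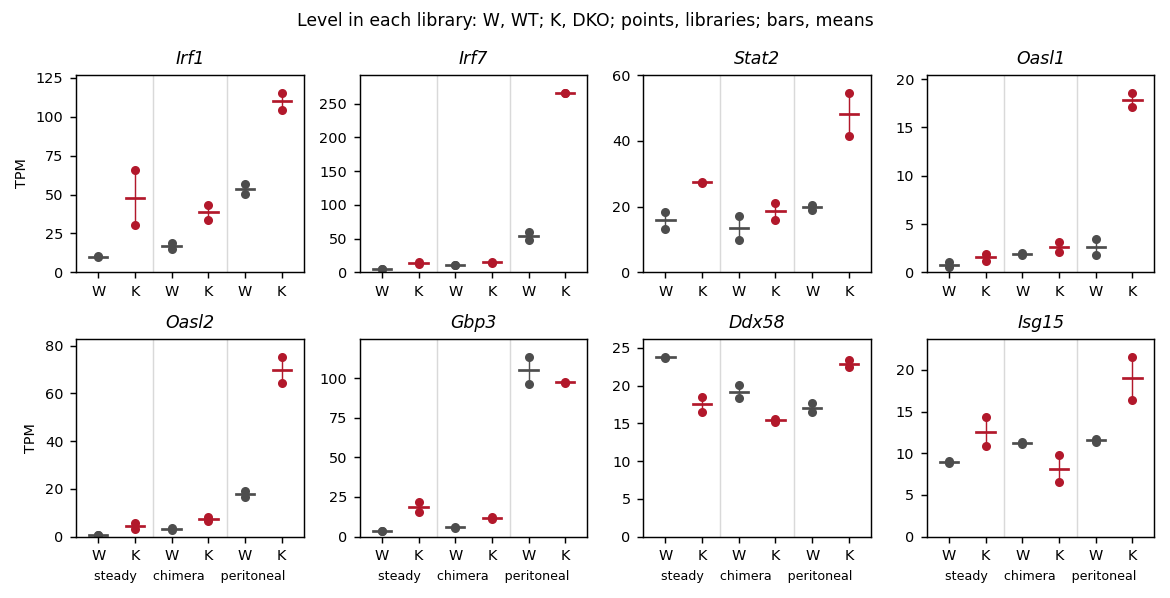
TPM (vertical axis, from 0) of 8 genes in each library, with WT in grey and DKO in red, points for the 2 libraries of a group and a bar for their mean, by population (horizontal axis). Irf7, Oasl1 and Oasl2 are highest in the peritoneal DKO libraries, Gbp3 is higher in DKO cells of both alveolar settings and overlaps between the genotypes in the peritoneum, and Ddx58 is lower in alveolar and higher in peritoneal DKO cells.

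The 5 immunity-related GTPases all rose as well. Iigp1, which opens the vacuoles of intracellular parasites, stood at 1.08 and 1.08 TPM in WT and 5.58 and 6.88 TPM in DKO, with 1.79 ± 0.14 (adjusted p = 4.93e-05). Irgm2, Irgm1, Ifi47 and Igtp rose by 1.04, 0.97, 0.90 and 0.72, the Igtp call being lost without replicate 2 of either genotype. In contrast none of the 3 guanylate-binding proteins passed. Gbp3 stood at 96.1 and 114 TPM in WT and 97.6 and 96.9 TPM in DKO (-0.10 ± 0.14, adjusted p = 0.69), and the genotypes overlapped. Gbp2 stood at 64.2 and 69.9 TPM in WT and 83.7 and 74.9 TPM in DKO (0.24 ± 0.16, adjusted p = 0.335), without overlap.

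Isg15 and its protease both rose. Usp18 stood at 5.02 and 5.25 TPM in WT and 14.7 and 19.8 TPM in DKO, with 1.56 ± 0.28 (adjusted p = 0.00416). Isg15 stood at 11.8 and 11.4 TPM in WT and 16.4 and 21.6 TPM in DKO, with 0.66 ± 0.19 (adjusted p = 0.0295). Neither gene overlapped between the genotypes, but the Isg15 call is lost without DKO replicate 2 or either WT replicate. Among the other induced genes Rtp4 stood at 31.2 and 33.0 TPM in WT and 77.4 and 95.8 TPM in DKO, with 1.4 ± 0.18 (adjusted p = 0.000743). Ifi44 stood at 0.0812 and 0.0340 TPM in WT and 1.24 and 1.12 TPM in DKO, given as a description, since it entered the test through these DKO libraries. Ifi35 and Xaf1, a promoter of cell death, rose by 0.74 and 0.78, the Xaf1 call being lost without either DKO replicate or WT replicate 1.

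All 5 sensors rose in peritoneal cells, including the 2 that were lower in alveolar cells, but only the Zbp1 call held when each peritoneal library in turn was left out. The Ifih1 and Eif2ak2 calls are lost without any 1 of the 4 libraries, and those of Ddx58 and Dhx58 without DKO replicate 2 or WT replicate 1. Ddx58 stood at 16.5 and 17.7 TPM in WT and 22.4 and 23.4 TPM in DKO, with 0.41 ± 0.09 (adjusted p = 0.00883). Dhx58 stood at 27.3 and 31.9 TPM in WT and 34.7 and 42.7 TPM in DKO, with 0.37 ± 0.11 (adjusted p = 0.0333). The DKO libraries lay above WT in both. Zbp1, Eif2ak2 and Ifih1 rose by 0.82, 0.53 and 0.41. Of the effectors, Mx2, Rsad2, Samhd1 and Mx1 rose by 0.94, 0.87, 0.85 and 0.63 (the Rsad2 call is lost without any 1 of the 4 libraries, and that of Mx1 without DKO replicate 2 or either WT replicate), and Parp14, Parp9 and Dtx3l rose by 0.88, 0.65 and 0.60. Without DKO replicate 2 the number of higher genes fell from 33 to 20, and that library was above its partner in 35 of the 41 genes and in 64.4% of all features.

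Monocyte markers summed to 381 to 557 TPM in peritoneal DKO and 150 to 261 TPM in WT libraries, nearly all from F13a1, with 2 of the 5 tested of 6 found higher and 2 lower, and Ly6c2, which defines classical monocytes, was at 0 in both DKO libraries. Neutrophil markers summed to 154 to 162 TPM in DKO and 162 to 178 TPM in WT. Plasmacytoid dendritic cell markers summed to 23.1 to 24.9 TPM in DKO and 17.9 to 19.2 TPM in WT, nearly all from Tcf4, with Siglech at no more than 0.0398 TPM. Of the 2 tested of 7 found, 1 was higher (Cox6a2, by 1.45), and after rescaling 2 were (Cox6a2 and Tcf4). Dendritic cell markers summed to 4.1 to 4.2 TPM in DKO and 15.7 to 16.1 TPM in WT, with 1 of the 4 tested of 6 found lower (Cd209a). Of 7 peritoneal macrophage markers 0 were higher and 3 lower (Gata6, Alox15 and Apoc1), and Apoc1 no longer passed after rescaling. Of 9 alveolar macrophage markers 1 was higher (Pparg) and 2 lower (Chil3 and Fabp4). The part of all these markers in the result was not tested.

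Setting the peritoneal effect against the steady-state alveolar effect, the difference passed as higher in 13 genes and as lower in 3, against 17.3% and 11.0% of all features. The median difference was 0.35 for the genes and 0.12 for all features. After rescaling the counts were 14 and 3, against 13.6% and 13.8% of all features. Gbp3 had the largest difference, -2.11 ± 0.20 (adjusted p = 7.24e-05), followed by Oasl1 with 1.89 ± 0.35 (adjusted p = 0.00363). Gbp3 rose in alveolar cells from a low WT level to one still below that of peritoneal cells of either genotype. Ifi35 differed by 1.11 ± 0.10 (adjusted p = 5.89e-05), Iigp1 by 1.37 ± 0.20 (adjusted p = 0.000935) and Oas2 by 1.18 ± 0.24 (adjusted p = 0.00609). For Iigp1 and Oas2, which had under 1 TPM in every steady-state alveolar library, the sign rests on adding 1 to the TPM. A test on recovered reads gave -0.26 and -0.28 with adjusted p = 0.8 and 0.827. The difference was also higher for Irf7 (0.88 ± 0.17, adjusted p = 0.0049) and for the sensors Ddx58, Dhx58, Ifih1 and Eif2ak2 (0.83, 0.69, 0.60 and 0.87), and lower for Ifit2 and Gbp2 (-0.98 and -0.85). The Ifih1 call is lost in 6 of the 8 cases of leaving out 1 library and the Gbp2 call in 4. The 13 include Ifi44, which entered through the peritoneal DKO libraries alone, so that its difference of 1.11 follows from the filter. Ifit2 entered only through alveolar DKO libraries, so its difference rests in part on the filter.

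The 3 genotype comparisons share no library, and 5 genes were higher in all of them, Irf1, Irf7, Oasl2, Ifi47 and Irgm2. A further 13 were higher in steady-state alveolar and peritoneal cells, Irf9, Stat2, Mx1, Oas1a, Oas2, Oas3, Rsad2, Irgm1, Iigp1, Rtp4, Parp9, Dtx3l and Zbp1. Ifit2 and Gbp3 were higher in both alveolar settings, and Ifit1, Gbp2 and Cmpk2 at steady state alone. The 12 genes higher in peritoneal cells alone were Isg15, Ifit3, Ifih1, Mx2, Oasl1, Usp18, Ifi44, Igtp, Xaf1, Parp14, Eif2ak2 and Samhd1, and 2 genes, Bst2 and Gbp7, passed in none. A call in one population and not in another does not show that the effects differ, and the tests of the differences are those given above. The authors' deposited table called 26 of the 41 genes higher and 0 lower at steady state, 6 and 2 in the chimera and 38 and 0 in the peritoneum, against 20.2%, 11.9% and 17.1% of all features higher and 17.1%, 10.4% and 14.8% lower. Of the calls of the authors' deposited table as higher, 23, 6 and 33 were also made here, and 0 were made in the opposite direction.

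Before any knockout, the WT levels differed between alveolar and peritoneal macrophages. Tissue, isolation, sort gate and library set cannot be told apart in this comparison. In WT steady-state alveolar macrophages 26 of the 41 genes were lower and 4 higher than in WT peritoneal macrophages, against 26.7% and 41.3% of all features. The median difference was -1.0 for the genes and 0.16 for all features, and after rescaling 29 genes were lower and 4 higher, against 34.6% and 34.2%. Oas2 stood at 0.315 and 0.0721 TPM in alveolar and 26.9 and 25.2 TPM in peritoneal WT libraries, a difference of -4.51 ± 0.17 (adjusted p = 4.51e-09). Gbp3 differed by -4.47 ± 0.14 (adjusted p = 1.35e-09) and Rtp4, at 1.94 and 1.42 against 31.2 and 33.0 TPM, by -3.64 ± 0.18 (adjusted p = 3.31e-08). Oasl2 differed by -3.62 ± 0.20 (adjusted p = 8.77e-08), Irf7 by -3.24 ± 0.12 (adjusted p = 4.09e-09) and Oas3 by -2.84 ± 0.22 (adjusted p = 1.25e-06). The alveolar libraries lay below the peritoneal ones in all 6 of these genes. The 4 genes higher in alveolar cells were Ifih1, Ddx58, Parp9 and Samhd1, by 0.53, 0.45, 0.43 and 0.39. In the order of mean levels, peritoneal DKO cells had the highest Irf7 (266 TPM), then peritoneal WT (53.9 TPM), chimera DKO (15.2 TPM) and steady-state DKO (14.4 TPM), whose libraries overlap, chimera WT (10.3 TPM) and steady-state WT (4.78 TPM). All other neighbours in that order were separate.

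WT alveolar macrophages also differed by setting. In WT chimera cells 10 of the 41 genes were higher and 9 lower than in WT steady-state cells, against 8.06% and 32.9% of all features. The median difference was 0.09 for the genes and -0.18 for all features. After rescaling 13 were higher and 2, Eif2ak2 and Parp14, lower, against 20.0% and 17.8%. All 5 OAS genes were higher (the Oas2 call is lost without chimera or steady-state replicate 2, and that of Oasl1 also without chimera replicate 1), with Oasl2 at 0.544 and 0.488 TPM at steady state and 2.79 and 3.47 TPM in the chimera (1.44 ± 0.20, adjusted p = 0.000652) and Oas3 at 0.930 and 0.620 and 3.30 and 2.62 TPM (1.16 ± 0.22, adjusted p = 0.00302). Ifi47 differed by 1.07 ± 0.17 (adjusted p = 0.00107), Irf7 by 0.97 ± 0.12 (adjusted p = 0.000365) and Bst2, at 97.4 and 89.6 TPM at steady state and 149 and 162 TPM in the chimera, by 0.73 ± 0.10 (adjusted p = 0.000588). Eif2ak2 was lower, at 9.43 and 10.7 TPM in the chimera and 20.2 and 20.0 TPM at steady state (-0.94 ± 0.14, adjusted p = 0.000887). The WT libraries of this comparison also enter the genotype effects above. A host with transplanted marrow, the CD45 allele and the library sets cannot be told apart here.

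The genes upstream of the 41 were counted from lists of the pathway. Of 11 interferon genes found, 0 had enough signal to be tested, the highest value being 1.02 TPM for Ifnk, with 6 of them at 0 in every library and Ifnb1 at no more than 0.275 TPM. Of the 7 receptor chains and kinases, 3 were higher and 2 lower in steady-state DKO cells, 4 and 0 in the chimera and 3 and 0 in the peritoneum, and after rescaling 5 and 0 at steady state. Shares of all features for these and the following counts are those of each comparison above, 12.2% higher and 39.4% lower at steady state, 13.7% and 13.6% in the chimera and 6.80% and 16.1% in the peritoneum. Ifnar2, a receptor chain, stood at 40.1 and 42.4 TPM in WT and 80.2 and 93.2 TPM in DKO steady-state cells, a log2 fold change of 1.05 ± 0.08 (adjusted p = 7.36e-06). It also rose in the chimera by 0.66 ± 0.08 (adjusted p = 0.000295) and in the peritoneum by 0.36 ± 0.08 (adjusted p = 0.0104). Ifngr2, a chain of the interferon gamma receptor, rose by 0.72 and 0.40 in the 2 alveolar settings, and Ifnar1 by 0.64 in the peritoneum.

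Of 7 further factors downstream, 3 were higher and 2 lower at steady state (4 and 0 after rescaling), 1 and 0 in the chimera and 3 and 0 in the peritoneum. Batf2 rose in all 3, by 1.34, 0.61 and 0.43. Of 8 negative regulators, 2 were higher and 5 lower at steady state (3 lower after rescaling), with 1 higher and 0 lower in each of the other populations. Socs3, a brake on cytokine receptors, rose by 1.08 at steady state and 1.57 in the chimera. The 3 that were lower at steady state also after rescaling were Irf2bp2, Ptpn2 and Ptpn6, with -0.69, -0.67 and -0.54 before it. Of 12 sensors and adaptors outside the 41 genes, 4 were higher and 4 lower at steady state (6 and 2 after rescaling), 5 and 1 in the chimera and 0 and 1 in the peritoneum (2 and 0 after rescaling). Ikbke, a kinase that activates Irf factors, stood at 1.75 and 1.78 TPM in WT and 19.3 and 33.2 TPM in DKO steady-state cells (3.25 ± 0.21, adjusted p = 1.92e-06) and rose by 1.02 ± 0.21 in the chimera. The 2 that were lower at steady state also after rescaling were Trim25 and Myd88, with -1.57 and -0.59 before it.

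Of 79 other interferon-induced genes outside the 41, 76 were found and 70 tested. At steady state 25 were higher and 8 lower in DKO cells (33 and 2 after rescaling), in the chimera 16 and 5, and in the peritoneum 23 and 2 (32 and 0 after rescaling). Their median log2 fold changes were 0.15, 0.12 and 0.28, next to 0.48, 0.13 and 0.82 for the 41 genes and -0.22, 0.01 and -0.09 for all features. The chemokine gene Cxcl10 rose in all 3 populations, by 1.85 ± 0.23, 1.05 ± 0.23 and 1.01 ± 0.23. Cxcl9 rose by 2.44 ± 0.37 at steady state and did not pass in the chimera (0.05) or the peritoneum (0.28). Slfn5, of the Schlafen family, rose in all 3, by 1.38, 0.86 and 1.38. Ifi27l2a was lower at steady state (-0.89) and in the chimera (-0.76), and higher in the peritoneum (1.09). These lists were chosen with earlier results of these data known, and their counts are a description.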

How the data were processed

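Polyadenylated RNA was sequenced from sorted macrophages after NEBNext Ultra II library preparation, per the labels' protocols. Per the submitters' processing notes, GRCm38.p3 and mm9 were the builds and the tools were HTSeq 0.5.3, TopHat 1.4.1, DESeq2 1.2.10, Bowtie2 and Bowtie 1.0.0, with no step assigned to any of them. The authors deposited TPM values per library and population, which are read here as given. The authors also deposited a mean normalized count as a signal column, a log2 fold change and p-values per population, used here for the read recovery and the authors' calls. All values were within 0.01 of whole reads when divided by the worth of 1 read (100.0% in each library). The ChIP-seq samples, 6 in all, are not analysed here.

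TPM is no count, so log2(TPM + 1) was tested with limma 3.58.1 in R 4.3.3, with an intensity trend, 6 group means and 12 libraries (6 residual degrees of freedom). The 12303 features with at least 1 TPM in at least 2 libraries entered. Tests are two-sided and Benjamini-Hochberg adjusted over all of them, with adjusted p under 0.05 as passing. Adding 1 before taking log2 shrinks the fold changes of low genes. Counting intervals (95%, exact) hold only for counting error. The test was checked on simulated data. Alternatives were the pseudocount, filters, a median of ratios rescaling, voom on recovered reads, the groups compared alone, a replicate block and leaving out each library.

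Values per library and full statistics are given for Irf1, Irf7, Irf9 and Stat2, for the 10 genes with the largest changes among those passing in each genotype comparison, and for the 6 largest in each other comparison. The 41 genes and the pathway and marker lists were chosen with earlier results of these data known. Promoter sequences are from RefSeq on GRCm38.p6, and no other coordinates were used. Features marked IMP_DUP (474) were left out of every list.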

Additional observations from a re-analysis of the deposited data

Results flagged for a closer look

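The genotype effect differed between populations in 22 tests of the difference itself (limma, adjusted p under 0.05), listed here as values on the log2(TPM + 1) scale. Taken as chimera minus steady state, the difference was negative for Gbp2 (-1.15), Gbp3 (-1.13), Irf7 (-0.90), Isg15 (-0.88) and Dtx3l (-0.52), and positive for Eif2ak2 (0.64). Isg15 was higher in DKO than in WT libraries at steady state and lower in the chimera, and Eif2ak2 the reverse. Neither of these genes passed within either setting, and the Eif2ak2 difference did not pass after rescaling.

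Between the peritoneum and the steady-state lung, the effect was larger in the peritoneum for Oasl1 (1.89), Ifi35 (1.11), Parp14 (0.93), Irf7 (0.88), Eif2ak2 (0.87), Ddx58 (0.83), Dhx58 (0.69), Samhd1 (0.69), Irgm1 (0.61) and Ifih1 (0.60). The differences of Iigp1 (1.37) and Oas2 (1.18) also passed, but their sign rests on adding 1 to the TPM and turned in a test on recovered reads (-0.26 and -0.28), so no larger peritoneal effect is stated for them. That of Ifi44 (1.11) follows from the filter on low values. The effect was smaller for Gbp3 (-2.11), Ifit2 (-0.98) and Gbp2 (-0.85), with Ifit2 entering the tests only through alveolar DKO libraries. The steady-state libraries enter both sets of differences. Ddx58, Dhx58 and Ifi35 had lower DKO than WT TPM in the lung and higher TPM in the peritoneum, in both libraries of each group. Of all features, 57.2% lay lower without overlap at steady state and 30.6% in the chimera, and 20.4% lay higher in the peritoneum. None of these genes passed as lower at steady state after rescaling, so a change of sign between steady-state lung and peritoneum is not established.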

How the results depend on the processing

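Counts of genes passing moved by more than 1.5 times in the following cases, and the cause was not tested. Larger and smaller effects are meant with their sign here and below, as differences above or below 0. After rescaling by median of ratios, lower genes at steady state went from 4 to 0, larger effects in the chimera than at steady state from 1 to 0, and lower genes in WT chimera against WT steady-state cells from 9 to 2. With the groups compared fitted alone, lower genes at steady state were 2, chimera genes were 4 higher and 1 lower, and effects in the chimera against the steady state were 0 larger and 3 smaller. A pseudocount of 0.1 gave 9 smaller effects in the chimera in place of 5, no filter gave 0 larger ones, and voom on recovered reads gave 3 lower genes in WT chimera cells in place of 9. In that voom test the difference of the peritoneal and steady-state effects changed sign for Iigp1 (-0.26, adjusted p = 0.8) and Oas2 (-0.28, adjusted p = 0.827).

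Leaving out each library in turn gave 12 to 24 higher and 2 to 5 lower genes at steady state, 4 to 6 higher and 0 to 2 lower in the chimera, and 20 to 27 higher and 0 lower in the peritoneum. It gave 0 to 2 larger and 3 to 11 smaller effects in the chimera, 10 to 14 larger and 1 to 5 smaller effects in the peritoneum, 4 higher and 23 to 25 lower genes in WT alveolar against peritoneal cells, and 6 to 10 higher and 3 to 5 lower genes in WT chimera cells. Where this left 1 library in a group, it was assumed to vary like the others.

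The voom test gave 23 higher and 4 lower genes at steady state, 5 and 3 in the chimera and 36 and 0 in the peritoneum. With a replicate block the counts were 21 higher and 5 lower at steady state, 6 and 2 in the chimera and 32 and 0 in the peritoneum; correlations of the deviations of same-numbered libraries were -0.04, 0.13 and -0.06, so the numbers were not shown to pair the libraries, and a call lost under the block is not shown to be a weaker effect. Genes with few reads, such as Iigp1, Mx2, Ifi44 and Usp18 in alveolar cells, are limited by depth.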
